A study of Mus musculus with 12 samples.

Results

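A set of 9 genes of the collecting duct principal cell was followed in injured mouse kidneys: Aqp2, Aqp3, Aqp4, Avpr2, Scnn1a, Scnn1b, Scnn1g, Hsd11b2 and Fxyd4. They were chosen by name as genes of this cell and all 9 were found, out of 54532 genes listed for each knockout experiment. Whole kidney RNA was sequenced from C57BL/6 mice in 4 groups of 3 mice. In unilateral ureteral obstruction (UUO), the ureter of one kidney is tied. In unilateral ischemia-reperfusion injury (UIRI), the blood supply of one kidney is clipped and then released. The first knockout group, with a floxed Ctnnb1 gene deleted by a Cre driven by the Ksp-cadherin (Cdh16) promoter, was set against wild-type mice, all after UUO. Ctnnb1 encodes β-catenin, and this Cre acts in kidney tubules, mainly in the collecting duct, the loop of Henle and the distal tubule. The paper also reports β-catenin loss in proximal tubules, in most of them by its staining and to some extent by its discussion. The second group, labelled CD44 knockout, was set against wild-type mice, all after UIRI. The study's methods describe its C57BL/6 mice as male and as young adults when bought, the nature of the CD44 allele is not given in the sources used here, and uninjured kidneys were not analysed here.

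Principal cells line the connecting tubule and collecting duct and set the final water and sodium content of urine. Vasopressin binds its V2 receptor on their basal side and, through cyclic AMP and protein kinase A, places the water channel aquaporin-2 in the apical membrane and raises transcription of its gene. Water then leaves across the basal membrane through aquaporin-3 and aquaporin-4. Aldosterone, acting on the mineralocorticoid receptor, raises sodium uptake through the apical epithelial sodium channel ENaC, while 11β-hydroxysteroid dehydrogenase type 2 inactivates glucocorticoids that would otherwise occupy the same receptor.

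The values are FPKM (read fragments divided by the length of the gene in kilobases and by a depth term), so levels of different genes are compared per length. Between 15940405 and 20737443 reads per library were assigned to genes. Knockout and wild-type mice of the same experiment were compared with limma on log2(FPKM + 1), two-sided, after genes averaging under 0.5 FPKM were dropped, and a gene was called at an adjusted p under 0.05. Differences below are knockout minus wild type on this log2 scale, which understates differences of low genes. In UUO 16166 genes were tested and 10.6% were called, 6.21% higher and 4.36% lower in the knockout. In UIRI 16113 were tested and 6.21% were called, 4.02% higher and 2.19% lower. Of the 9 members, 8 passed the filter in each experiment and Avpr2 did not.

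The targeted genes were read first. Ctnnb1 was at 84.7, 71.4 and 71.7 FPKM in β-catenin knockout mice and 91.2, 86.7 and 98.5 FPKM in wild-type mice after UUO, every knockout mouse below every wild-type mouse (log2 difference −0.28, limma adjusted p = 0.189). Cd44 was at 19.0, 12 and 13.9 FPKM in the libraries labelled CD44 knockout and 19.9, 16.3 and 17.8 FPKM in wild-type mice after UIRI (log2 difference −0.27, adjusted p = 0.339), and the groups overlapped. The label is therefore not borne out by the gene's level, although a value summed over a whole gene does not show the loss of an exon. Cdh16, whose promoter drives the Cre, was at 332, 288 and 310 FPKM in β-catenin knockout mice and 273, 255 and 276 FPKM in wild-type mice (log2 difference 0.21, adjusted p = 0.342), with no overlap.

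There were 2 libraries that stood apart in the level of the members themselves. The summed level of the 9 members ranged from 214 to 723 FPKM over the 12 libraries, and the highest was replicate 1 of the β-catenin knockout, against 323 and 353 FPKM in the other mice of its group. Replicate 1 had the highest level of its group for 7 of the 9 members, and replicate 2 had the lowest for all 9. After UIRI, replicate 2 of the wild-type mice summed to 625 FPKM, against 328 and 323 FPKM in the other wild-type mice, and led its group in 5 members, Aqp2, Aqp3, Aqp4, Hsd11b2 and Fxyd4. That library was also high in thick ascending limb genes (sum 1293 against 694 and 644 FPKM), but not in macrophage genes (2039 against 2011 and 2085 FPKM). Replicate 1 of the β-catenin knockout was high in fibroblast genes (207 against 63.5 and 84.0 FPKM), but not in macrophage genes (529 against 582 and 622 FPKM). Knockout differences and correlations that rest on either library are given below with and without it.

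Aqp2 was the most abundant member in 11 of the 12 libraries and Avpr2 the least abundant in 11. In the exception for Aqp2, wild-type replicate 3 after UIRI, Hsd11b2 was higher. Aqp2 made up from 29.8% to 64.9% of the summed level of the members, and ranked between 58 and 477 among all genes of a library. In bulk RNA, fewer principal cells and less RNA per principal cell cannot be told apart.

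**Figure D1:**
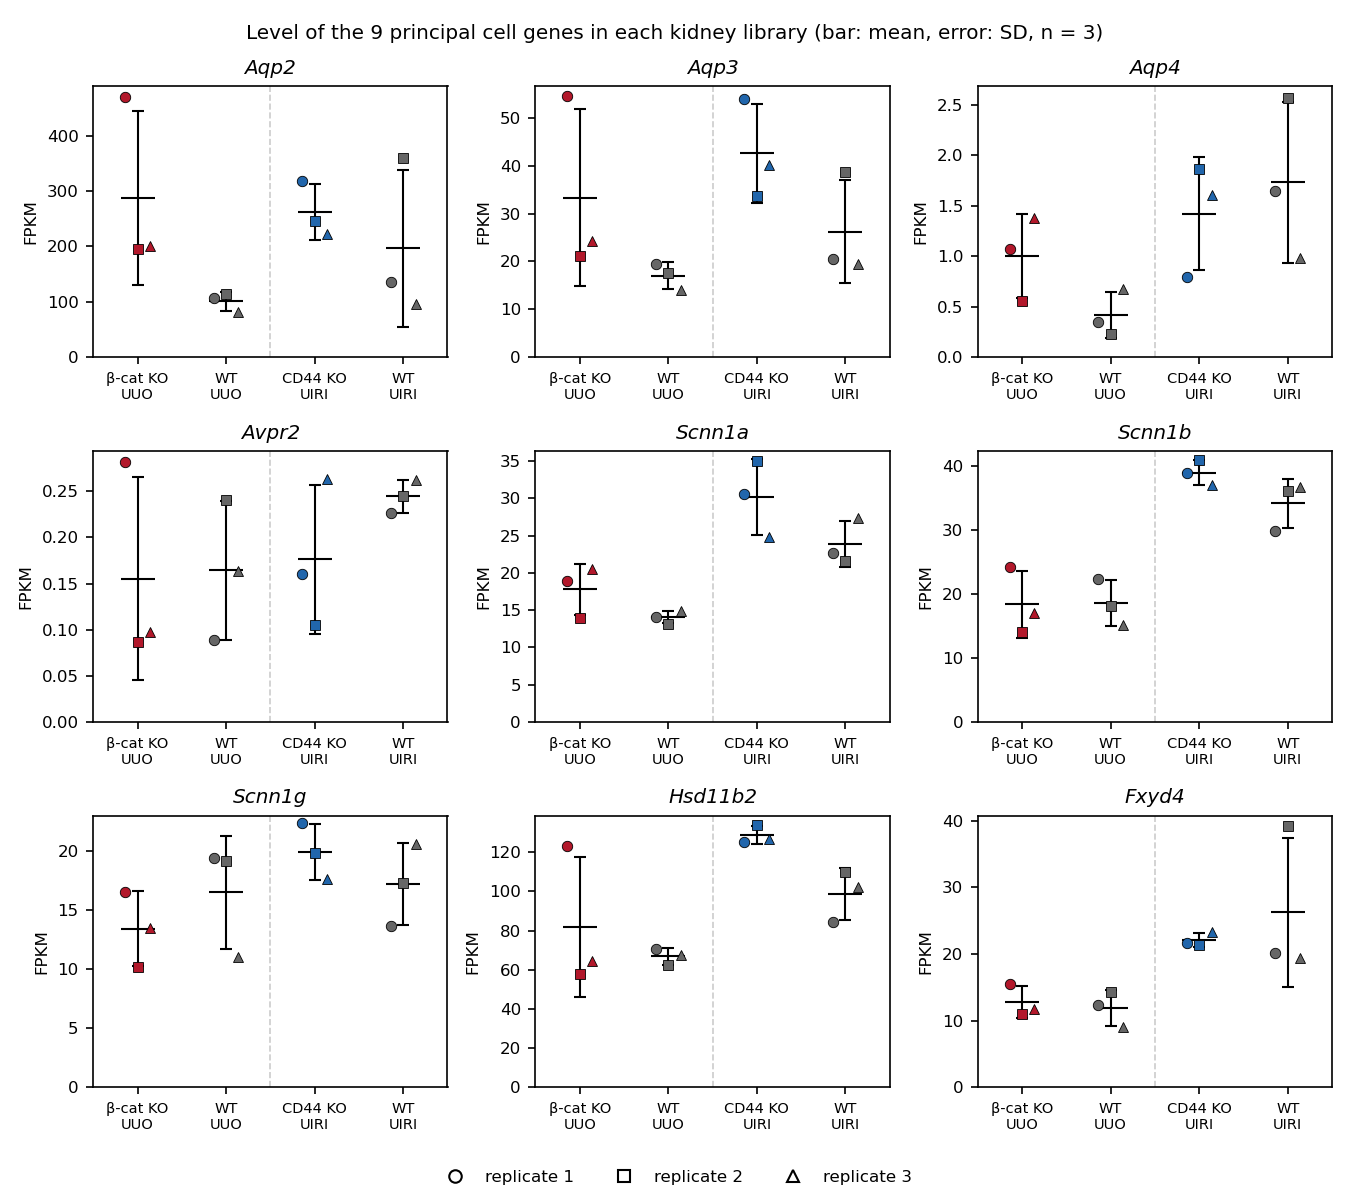
Level of each of the 9 members in each of the 12 libraries, in FPKM on a linear axis from 0, with a point for each mouse, a line at the mean of each group of 3 and error bars of 1 SD. All 3 β-catenin knockout mice lie above all 3 wild-type mice after UUO for Aqp2 (195 to 469 against 81.5 to 115 FPKM) and Aqp3, and no library reaches 0.3 FPKM for Avpr2.

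The apical water channel gene Aqp2 (ENSMUSG00000023013) lies on chromosome 15 of GRCm38 from 99579055 to 99584547, upstream of its relatives Aqp5 and Aqp6. Only 6234 bases separate it from Aqp5, and 6570 separate Aqp5 from Aqp6. The basal water channel gene Aqp3 lies on chromosome 4 from 41092722 to 41098183, on the minus strand. The 250 bases before the start of each gene are shown because Aqp2 carries the one call among the members and Aqp3 is its basal partner, with RefSeq sequence on GRCm38.p6 at chr15:99578806-99579055 on the plus strand for Aqp2 and chr4:41098184-41098433 on the minus strand for Aqp3. Capitals mark matches, on either strand, to the 4 motifs named after them.
Aqp2: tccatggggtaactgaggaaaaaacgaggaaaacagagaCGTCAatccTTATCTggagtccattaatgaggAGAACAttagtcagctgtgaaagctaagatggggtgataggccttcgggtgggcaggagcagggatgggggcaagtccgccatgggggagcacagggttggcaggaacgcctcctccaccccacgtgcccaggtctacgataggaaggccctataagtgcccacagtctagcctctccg
Aqp3: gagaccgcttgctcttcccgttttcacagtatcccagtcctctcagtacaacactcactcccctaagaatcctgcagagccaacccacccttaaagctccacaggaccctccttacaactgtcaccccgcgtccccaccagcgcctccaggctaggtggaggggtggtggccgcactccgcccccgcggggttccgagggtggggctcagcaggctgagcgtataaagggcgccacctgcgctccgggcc

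The motifs were the cyclic AMP response element core TGACG (reverse complement CGTCA), the GATA motif AGATAA (reverse complement TTATCT), the TCF/LEF motif CTTTGA (reverse complement TCAAAG), through whose factors β-catenin acts, and the steroid receptor motif AGAACA (reverse complement TGTTCT). Each was searched on both strands from 250 bases before to 50 bases after the start. The Aqp2 window held CGTCA starting 211 bases before the start (position −211), TTATCT at −202 and AGAACA at −179, none of them overlapping. Of 32851 mouse promoters of the same length, 20.8% held the cyclic AMP element core, 11.2% the GATA motif, 16% the TCF/LEF motif and 19% the steroid receptor motif. The Aqp3 window held none of the 4. Promoter sequence was at hand for 6 of the 9 members, and of the other 4 of these only Avpr2 held a match, TGTTCT at −59 and again at −50. CTTTGA was in none of the 6 windows, which says only that these letters are not there.

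After UUO, Aqp2 was the 1 member of 8 tested that was called, and it was higher in β-catenin knockout mice. Its level was 469, 195 and 200 FPKM in the knockout mice and 106, 115 and 81.5 FPKM in wild-type mice. Every knockout mouse stood above every wild-type mouse, and replicate 1 stood far above the other knockout mice. The means were 288 ± 157 and 101 ± 17.3 FPKM (SD, n = 3 each), a ratio of 2.86. On the log2 scale the difference was 1.39 (standard error 0.35, 95% interval 0.58 to 2.21, limma adjusted p = 0.0474). The call sits close to the threshold: without knockout replicate 1 the difference was 0.98 and the adjusted p 0.0487, but leaving out knockout replicate 2 or any of the wild-type mice ended the call, with adjusted p up to 0.114. It was also lost with no filter on low genes (adjusted p = 0.116) and with FPKM rescaled to the same total in every library (log2 difference 1.18, adjusted p = 0.0682). Between 1964 and 11461 reads lay behind each value, so counting error was small beside the spread between mice.

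The basal channels had the same sign but were not called. Aqp3 was at 54.7, 21.1 and 24.3 FPKM in β-catenin knockout mice and 19.6, 17.5 and 14.1 FPKM in wild-type mice, again with no overlap. Its log2 difference was 0.81 (standard error 0.34, 95% interval 0.02 to 1.61, limma adjusted p = 0.158), and 0.40 without knockout replicate 1. Aqp4, scarce in these kidneys, was at 1.07, 0.557 and 1.37 FPKM against 0.345, 0.231 and 0.672 FPKM, and the groups overlapped. Only 22 to 124 reads lay behind each Aqp4 value, and its log2 difference was 0.49 (standard error 0.21, adjusted p = 0.172). Aqp2 and Aqp3 were the 2 members of 8 without overlap after UUO, where 35.5% of all genes tested did not overlap, 19.6% lying wholly above the wild-type mice and 15.9% wholly below. At an unadjusted p under 0.05 the same 2 members were higher, beside 17% of all genes tested.

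The vasopressin V2 receptor gene Avpr2 was near the limit of detection in every library. It lies on chromosome X from 73892102 to 73895502 and overlaps L1cam and Arhgap4 on the other strand, and, since the strand setting of the read counting is not stated, reads of these genes cannot be told apart where they overlap. After UUO it was at 0.282, 0.0871 and 0.0975 FPKM in β-catenin knockout mice and 0.0893, 0.241 and 0.163 FPKM in wild-type mice. After UIRI it was at 0.160, 0.105 and 0.264 FPKM in mice labelled CD44 knockout and 0.227, 0.245 and 0.263 FPKM in wild-type mice. The groups overlapped in both experiments, and with 4 to 15 reads per library a difference in receptor RNA was not detectable at this depth.

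None of the 3 subunits of the sodium channel was called after UUO, and whether their differences depart from that of Aqp2 was not tested. Scnn1a, the α subunit, was at 18.9, 13.9 and 20.6 FPKM in β-catenin knockout mice and 14.1, 13.2 and 14.9 FPKM in wild-type mice (log2 difference 0.30, 95% interval −0.06 to 0.67, limma adjusted p = 0.234). Scnn1b, the β subunit, was at 24.1, 14 and 16.9 FPKM against 22.3, 18.1 and 15.2 FPKM (log2 difference −0.03, 95% interval −0.54 to 0.48, adjusted p = 0.939). Scnn1g, the γ subunit, was at 16.5, 10.2 and 13.5 FPKM against 19.4, 19.1 and 11 FPKM (log2 difference −0.26, 95% interval −0.85 to 0.33, adjusted p = 0.518). The groups overlapped for each subunit, and as folds the intervals ran from 0.686 to 1.40 for Scnn1b and from 0.554 to 1.25 for Scnn1g. Scnn1b and Scnn1g lie on chromosome 7 with 96562 bases between them, Scnn1b from 121865038 to 121918514 and overlapping Cog7 on the other strand.

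The sequences before these neighbouring genes are shown because the levels of Scnn1b and Scnn1g moved closely together within groups, from chr7:121864788-121865037 for Scnn1b and chr7:121734229-121734478 for Scnn1g, both on the plus strand. Neither holds capitals, since none of the 4 motifs was found.
Scnn1b: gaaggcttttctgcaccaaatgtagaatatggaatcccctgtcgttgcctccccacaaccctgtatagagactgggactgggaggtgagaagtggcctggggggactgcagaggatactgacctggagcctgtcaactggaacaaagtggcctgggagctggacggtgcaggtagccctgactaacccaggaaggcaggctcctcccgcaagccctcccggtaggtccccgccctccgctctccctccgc
Scnn1g: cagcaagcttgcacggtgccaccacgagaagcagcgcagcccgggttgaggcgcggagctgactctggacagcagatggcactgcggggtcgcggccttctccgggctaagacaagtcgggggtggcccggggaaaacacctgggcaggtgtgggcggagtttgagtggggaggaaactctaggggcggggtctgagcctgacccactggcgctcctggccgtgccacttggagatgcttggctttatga

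Hsd11b2, the glucocorticoid-inactivating enzyme, was at 123, 57.8 and 64.4 FPKM in β-catenin knockout mice and 70.7, 62.3 and 67.7 FPKM in wild-type mice after UUO. Knockout replicate 1 was the highest of the 6, and the other knockout mice lay within or below the wild-type range. Its log2 difference was 0.20 (95% interval −0.44 to 0.85, limma adjusted p = 0.653), and it turned to −0.13 without that library and to −0.01 with equal totals. Fxyd4, whose product modulates the sodium pump in the collecting duct, was at 15.5, 11 and 11.8 FPKM against 12.3, 14.4 and 8.96 FPKM. The groups overlapped (log2 difference 0.11, 95% interval −0.35 to 0.56, adjusted p = 0.752), with a sign that turned to −0.10 with equal totals. Over the 8 members tested, the median log2 difference was 0.25 and 6 were positive, against a median of 0.01 and 51.1% positive over all genes tested. With equal totals the median was 0.04 and 4 were positive, and without knockout replicate 1 it was 0.11, also with 4 positive.

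**Figure D2:**
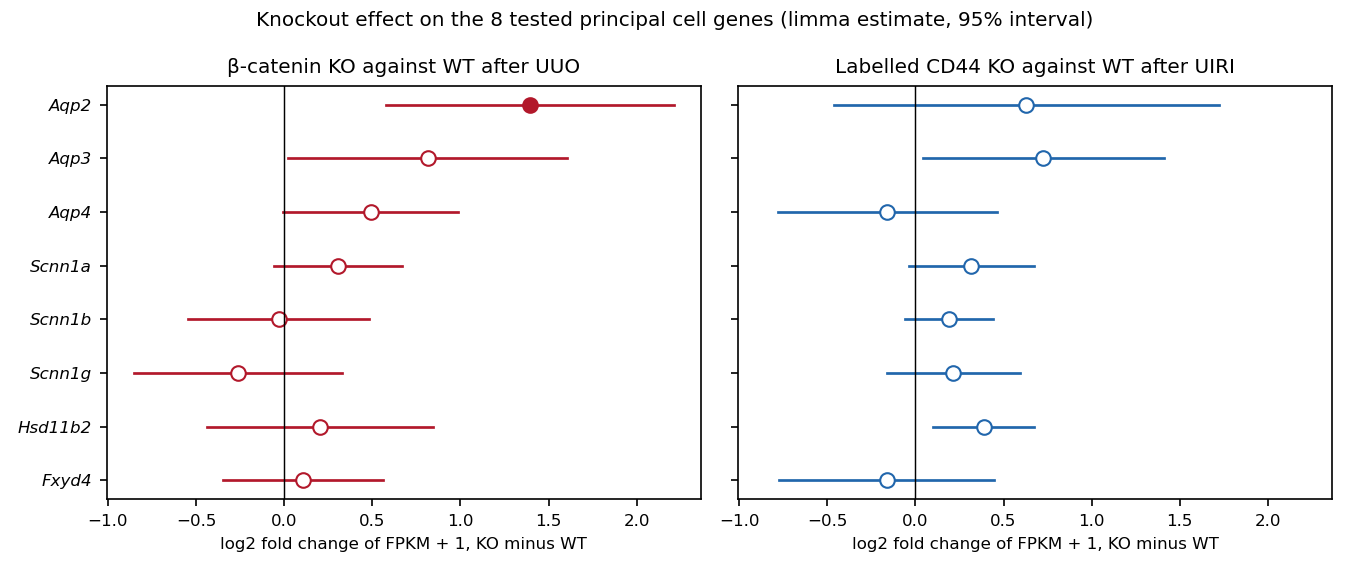
Log2 difference of each tested member, knockout minus wild type on log2(FPKM + 1), as a point (filled where called) with its 95% interval from limma, after UUO (β-catenin knockout) and after UIRI (labelled CD44 knockout). After UUO, Aqp2 at 1.39 is the only called member, and the sodium channel subunits lie between −0.26 and 0.30.

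Ratios within a library do not depend on its depth or total, and after UUO the ratio of Aqp2 to 6 of the 7 other tested members lay wholly higher in the knockout, Aqp4 being the exception. Aqp2 stood at 8.58, 9.24 and 8.23 times Aqp3 in β-catenin knockout mice and at 5.41, 6.55 and 5.79 times in wild-type mice. Against Hsd11b2 it stood at 3.81, 3.37 and 3.11 times in the knockout and at 1.5, 1.84 and 1.20 times in the wild type. Against Scnn1b it stood at 19.5, 13.9 and 11.8 times in the knockout and at 4.74, 6.35 and 5.37 times in the wild type. In each case all 3 knockout mice lay above all 3 wild-type mice, and knockout replicate 1, so high in Aqp2 itself, was near its group for the ratios to Aqp3 and Hsd11b2. The ratios to Scnn1a, Scnn1g and Fxyd4 were arranged alike, at 9.73 to 24.8 against 5.48 to 8.69, 14.8 to 28.4 against 5.45 to 7.41, and 17.0 to 30.3 against 8 to 9.09. Against Aqp4 it stood at 437, 350 and 146 times in the knockout and at 307, 497 and 121 times in the wild type, with overlap. The same held for Aqp2 over Cdh16 (1.41, 0.676 and 0.645 against 0.388, 0.450 and 0.295) and over Atp6v1b1, a proton pump subunit of the neighbouring intercalated cells (40.1, 18.6 and 19.9 against 8.85, 11.5 and 7.45). All these ratios share the numerator Aqp2 and are no evidence apart from its own difference. Of 15718 genes averaging at least 0.5 FPKM, above 0 in every UUO library and used as the denominator, 79.6% gave an Aqp2 ratio wholly higher in the knockout. The make-up of the sodium channel overlapped between the groups: Scnn1a made up 36.2% ± 4.30 of the 3 subunits in knockout and 29.2% ± 6.08 in wild-type mice, Scnn1b 36.8% ± 3.65 and 37.6% ± 2.13, and Scnn1g 27.0% ± 0.674 and 33.2% ± 5.74 (SD, n = 3 each).

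**Figure D3:**
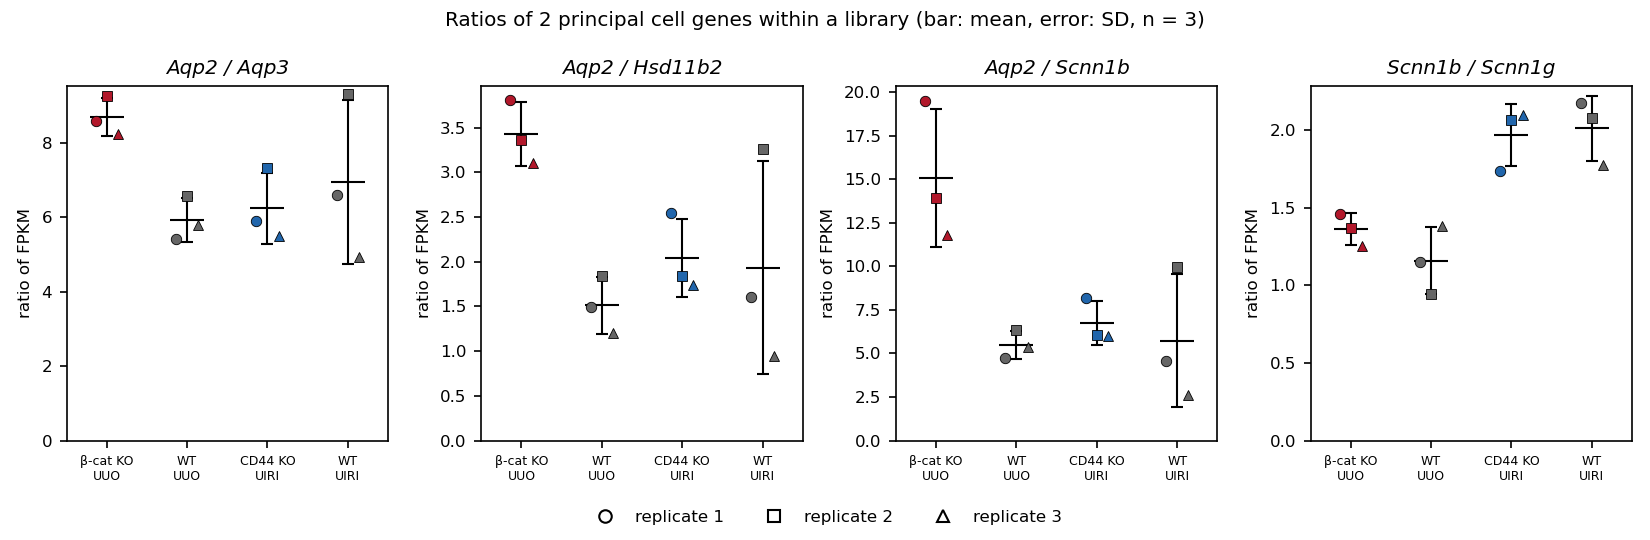
Ratio of the level of Aqp2 to that of Aqp3, Hsd11b2 and Scnn1b within each library, with that of Scnn1b to Scnn1g in the last panel, on a linear axis from 0, with a point for each mouse, a line at the mean of 3 and error bars of 1 SD. After UUO the 3 β-catenin knockout mice lie above the 3 wild-type mice in the 3 Aqp2 panels, while after UIRI the groups overlap in all 4 panels.

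After UIRI no member was called between the mice labelled CD44 knockout and the wild-type mice with limma, also none with voom on recovered reads. At an unadjusted p under 0.05, 2 of the 8 were higher, Aqp3 and Hsd11b2, and none was lower, beside 15.8% of all genes tested that were higher at that level. Aqp2 was at 318, 247 and 222 FPKM in the mice labelled CD44 knockout and 135, 359 and 96.1 FPKM in wild-type mice. Wild-type replicate 2 was the highest of the 6 libraries, and the other wild-type mice were the lowest. The log2 difference was 0.63 (standard error 0.46, 95% interval −0.46 to 1.72, limma adjusted p = 0.419), and without that library 1.18 (adjusted p = 0.0825). That was the largest value with any library left out, and the smallest was 0.23, without wild-type replicate 3 (adjusted p = 0.789). Wild-type replicate 2 was singled out for its high member levels, so leaving it out raises this difference by construction.

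Aqp3 was at 54.0, 33.7 and 40.3 FPKM against 20.5, 38.7 and 19.5 FPKM, where wild-type replicate 2 lay within the range of the knockout and the other wild-type mice lay below it. Its log2 difference was 0.72 (95% interval 0.04 to 1.41, limma adjusted p = 0.164), and without wild-type replicate 2 it was 1.03 (adjusted p = 0.0860). With each library left out it ranged from 0.55 to 1.03, with limma adjusted p up to 0.365. Aqp4 was at 0.796, 1.86 and 1.61 FPKM against 1.64, 2.57 and 0.984 FPKM (log2 difference −0.16, adjusted p = 0.734), with overlap. Most of the Aqp2 ratios that lay apart after UUO overlapped here, with the exception of Aqp2 over Fxyd4 (9.52 to 14.7 against 4.95 to 9.16): Aqp2 stood at 5.90, 7.32 and 5.50 times Aqp3 in the mice labelled CD44 knockout and at 6.58, 9.29 and 4.94 times in wild-type mice. Against Hsd11b2 it stood at 2.54, 1.84 and 1.75 times and at 1.60, 3.26 and 0.942 times. Of 15697 genes used as the denominator in the same way after UIRI, 5.84% gave an Aqp2 ratio wholly higher in the mice labelled CD44 knockout. Whether the ratios differ between the 2 injuries was not tested.

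Of the sodium-handling members, Hsd11b2 and Scnn1b lay wholly above the wild-type mice after UIRI, where 33.5% of all genes tested did not overlap, 19.1% lying wholly above and 14.5% wholly below. Hsd11b2 was at 125, 134 and 127 FPKM in the mice labelled CD44 knockout and 84.3, 110 and 102 FPKM in wild-type mice. Its log2 difference was 0.39 (standard error 0.12, 95% interval 0.10 to 0.67, limma adjusted p = 0.0970). Scnn1b was at 38.8, 40.9 and 37.0 FPKM against 29.7, 36.0 and 36.6 FPKM, so that the gap between the groups was narrow (log2 difference 0.19, adjusted p = 0.295). With equal totals the log2 differences fell to 0.25 for Hsd11b2 and 0.06 for Scnn1b (limma adjusted p = 0.209 and 0.750). Scnn1a was at 30.6, 35.0 and 24.8 FPKM against 22.7, 21.6 and 27.4 FPKM (log2 difference 0.32, adjusted p = 0.225), and Scnn1g at 22.4, 19.8 and 17.6 FPKM against 13.7, 17.3 and 20.6 FPKM (log2 difference 0.21, adjusted p = 0.426). Both overlapped. Fxyd4 was at 21.7, 21.4 and 23.3 FPKM against 20.1, 39.2 and 19.4 FPKM (log2 difference −0.16, adjusted p = 0.722), and without wild-type replicate 2 the sign turned, to 0.15. The median over the 8 members was 0.27 with 6 positive, against 0.00 over all genes tested. It was 0.14 with equal totals. With wild-type replicate 2 left out all 8 were positive. That library was singled out for its high member levels, so leaving it out favours positive differences by construction. The count was 7 without replicate 1 of the mice labelled CD44 knockout and 6 without their replicate 2.

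The levels of the members across the 4 groups are a description only, since the values of each injury were scaled separately and surgery and scaling cannot be told apart. For Scnn1b the order of the means was 38.9 FPKM in mice labelled CD44 knockout after UIRI, 34.1 FPKM in their wild-type mice, 18.5 FPKM in wild-type mice after UUO and 18.3 FPKM in β-catenin knockout mice. The 2 UUO groups overlapped, and every UUO mouse was below every UIRI mouse. Scnn1a had the means 30.1, 23.9, 17.8 and 14.1 FPKM in mice labelled CD44 knockout, wild type after UIRI, β-catenin knockout and wild type after UUO, and Fxyd4 had 26.2 FPKM in wild type after UIRI, 22.1 FPKM in mice labelled CD44 knockout, then 12.8 FPKM with β-catenin deleted and 11.9 FPKM in wild type after UUO. For both, the UIRI groups overlapped each other, the UUO groups overlapped each other, and the injuries did not. Hsd11b2 ran from 129 FPKM in mice labelled CD44 knockout and 98.8 FPKM in their wild-type mice to 81.8 FPKM in β-catenin knockout mice and 66.9 FPKM in wild type after UUO. Of its neighbours in this order only the first pair, the UIRI groups, did not overlap.

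Aqp2 had another order. It was highest in β-catenin knockout mice after UUO at 288 FPKM, followed by 262 FPKM in mice labelled CD44 knockout, 197 FPKM in wild type after UIRI and 101 FPKM in wild type after UUO, and each group overlapped the next. Aqp3 ran from 42.6 FPKM in mice labelled CD44 knockout over 33.4 FPKM with β-catenin deleted and 26.2 FPKM in wild type after UIRI to 17.0 FPKM in wild type after UUO, with every neighbour overlapping. Neighbouring groups also overlapped throughout for Scnn1g (13.4 to 19.9 FPKM), Aqp4 (0.416 to 1.73 FPKM) and Avpr2 (0.156 to 0.245 FPKM).

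Within groups, the members did not vary as a block, and several correlations rested on the 2 libraries that stood apart. With each group's mean removed on the log scale, the 12 libraries gave Pearson's r of 0.92 between Aqp2 and Aqp3, 0.89 between Aqp2 and Fxyd4, 0.63 with Hsd11b2, 0.54 with Scnn1b and −0.12 with Scnn1a. Without those 2 libraries, over the 10 left, these were 0.70 with Aqp3, 0.53 with Fxyd4, −0.56 with Hsd11b2, 0.13 with Scnn1b and −0.12 with Scnn1a. Group means were taken again, so in each group that lost a library the remaining 2 deviations mirror each other. These values therefore rest on fewer independent deviations than 10. Scnn1b ran closer to Scnn1g (0.84, and 0.87 without the 2 libraries) and to Hsd11b2 (0.83, and 0.66) than to Aqp2. Among 13052 protein-coding genes, those most like Aqp2 were Sars2 (0.95), Nsg1 (0.94), Smpd1 (0.93), Zfp202 (0.93) and then Aqp3. Without the 2 libraries Sars2 was at 0.77, Nsg1 at 0.36, Smpd1 at 0.80 and Zfp202 at 0.79, and these 5 genes ranked between 68 and 2222. These are descriptions, and genes of a library share its depth and dissection.

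Genes that act with the members were read from lists. Of 18 genes of vasopressin signalling and aquaporin-2 trafficking, all were tested and none was called in either experiment with limma. With limma 1 was lower after UUO with a filter at 1 FPKM, with equal totals or without knockout replicate 1. Without knockout replicate 3, 1 was higher and 1 lower there. With voom on recovered reads 2 were lower after UUO and none was called after UIRI. After UUO 2 were higher and 4 lower at an unadjusted p under 0.05, beside 17% and 12.9% of all genes tested. After UIRI 2 were higher and 1 lower, beside 15.8% and 11.2%, and the median log2 differences were −0.07 and 0.06. The adenylyl cyclase gene Adcy3 was at 0.837, 0.533 and 0.604 FPKM in β-catenin knockout mice and 1.54, 1.24 and 1.21 FPKM in wild-type mice, without overlap (log2 difference −0.49, adjusted p = 0.0706). Creb1, the transcription factor that binds cyclic AMP response elements, was at 3.18, 3.28 and 4.02 FPKM against 4.62, 5.40 and 5.34 FPKM (log2 difference −0.45, adjusted p = 0.0558). Prkar2a, a regulatory subunit of protein kinase A, had log2 differences of 0.04 after UUO and 0.34 after UIRI (adjusted p = 0.875 and 0.0852).

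Of 17 genes of the aldosterone response and sodium channel regulation, 15 were tested after UUO and 4 were called higher, Prss8, Sgk1, Wnk4 and Usp2, with none lower and a median log2 difference of 0.55. Prss8 encodes prostasin, a protease that activates ENaC. It was at 183, 194 and 164 FPKM in β-catenin knockout mice and 71.1, 72.8 and 74.2 FPKM in wild-type mice, far apart (log2 difference 1.29, limma adjusted p = 0.00613), and stayed called with each library left out. Sgk1, the aldosterone-induced kinase that keeps ENaC at the surface, was at 26.1, 52.3 and 50.6 FPKM against 10.6, 10.5 and 19.4 FPKM (log2 difference 1.59, adjusted p = 0.0274). The highest wild-type mouse came near the lowest knockout mouse, and the call was lost without knockout replicate 2 (adjusted p = 0.0806), knockout replicate 3 (0.0534), wild-type replicate 1 (0.0820) or wild-type replicate 2 (0.0987). Wnk4, a kinase of distal salt transport, had a log2 difference of 0.84 (adjusted p = 0.0137), and the deubiquitinase gene Usp2 one of 1.16 (adjusted p = 0.0222). Leaving out wild-type replicate 2 ended both calls, at adjusted p of 0.0587 and 0.0838, and leaving out wild-type replicate 1 ended that of Usp2, at 0.0687. The number of list genes called ranged from 1 without wild-type replicate 2 to 5 without wild-type replicate 3, and was 2 without wild-type replicate 1, 2 with no filter, and 6 with voom and also with a block for the replicate number.

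The mineralocorticoid receptor gene Nr3c2, chosen after its values were seen, was at 2.11, 2.29 and 2.28 FPKM in β-catenin knockout mice and 2.46, 1.94 and 1.83 FPKM in wild-type mice, with overlap. After UIRI, 3 of 16 aldosterone genes tested were higher and none lower, at a median log2 difference of 0.11. Prss8 was at 180, 145 and 178 FPKM in mice labelled CD44 knockout and 87.4, 91.6 and 97.0 FPKM in wild-type mice (log2 difference 0.86, limma adjusted p = 0.0267). The other called genes were Furin, another ENaC protease (0.76, adjusted p = 0.0381), and the sodium pump subunit gene Atp1b1 (0.53, adjusted p = 0.0392). Leaving out any library other than replicate 2 of the mice labelled CD44 knockout ended all 3 calls. Prss8, Furin, Sgk1 and Atp1b1 are also expressed in other tubule segments and cell types.

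Other principal cell and collecting duct epithelium genes did not pass the test in either experiment, with 0 of 19 called after UUO and 0 of 20 after UIRI with limma. At an unadjusted p under 0.05, 1 was higher and 1 lower after UUO, and 2 were higher after UIRI. With voom on recovered reads 1 was called after UUO and 2 after UIRI. With limma 1 was higher after UUO with either smaller pseudocount, a filter at 1 FPKM, the replicate block or without knockout replicate 3, and 1 was lower without wild-type replicate 3. After UIRI 1 was higher and 3 were lower without replicate 2 of the mice labelled CD44 knockout. The median log2 differences were 0.08 and 0.01. The transcription factor gene Emx1 was at 14.9, 18.0 and 8.63 FPKM in β-catenin knockout mice and 7.08, 6.41 and 5.93 FPKM in wild-type mice, without overlap (log2 difference 0.94, limma adjusted p = 0.0516), and it was at 26.2, 16.7 and 19.8 FPKM against 12, 11.9 and 13.9 FPKM after UIRI (0.67, adjusted p = 0.0592). Cldn8, a tight junction gene of the distal nephron, had a log2 difference of −0.73 after UUO (limma adjusted p = 0.126).

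Of the other water channels, 4 of 9 were tested after UUO and 3 were called higher, with a median of 0.91. Aqp1, the channel of the proximal tubule and thin descending limb, was at 161, 175 and 175 FPKM in β-catenin knockout mice and 64.6, 49.6 and 76.7 FPKM in wild-type mice (log2 difference 1.43, limma adjusted p = 0.00935). Aqp7 and Aqp11, which the proximal tubule also expresses, had log2 differences of 0.88 and 0.93 (adjusted p = 0.0298 and 0.0148). After UIRI 1 of 5 was called, Aqp7 (0.95, adjusted p = 0.0267), and Mip and Aqp12 were listed at 0 in every UUO library. Of the relatives of Fxyd4, Fxyd2, a sodium pump modulator of proximal and distal tubules, was higher in β-catenin knockout mice (1.04, adjusted p = 0.0203), and Fxyd5 was lower (−0.82, adjusted p = 0.0285), the latter also in mice labelled CD44 knockout (−0.75, adjusted p = 0.0362). Fxyd1 was lower there as well (−0.78, adjusted p = 0.0399). With a library left out after UUO, Aqp1 stayed called throughout, while Aqp11 lost its call without wild-type replicate 2 (0.0627), Aqp7 without any library but knockout replicate 3 (up to 0.0993), Fxyd2 without any but knockout replicate 3 and wild-type replicate 1 (up to 0.0741), and Fxyd5 without any but knockout replicates 2 and 3 (up to 0.0881). After UIRI the calls of Aqp7, Fxyd5 and Fxyd1 held only with replicate 2 of the mice labelled CD44 knockout left out, and reached up to 0.0916, 0.120 and 0.141 otherwise.

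Markers of other parts of the kidney moved with the knockout in both experiments, and their part in the Aqp2 result was not tested. After UUO 7 of 10 proximal tubule genes were called higher and none lower in β-catenin knockout mice, and their summed level was 1393 to 2198 FPKM against 592 to 668 FPKM. Of 6 thick ascending limb genes 2 were higher, with sums of 507 to 898 against 316 to 456 FPKM. Of 8 macrophage genes 7 were lower, with sums of 529 to 622 against 1061 to 1280 FPKM, and of 6 fibroblast genes 2 were lower, at 63.5 to 207 against 190 to 240 FPKM. Intercalated cells, which share the collecting duct with principal cells, showed 1 of 10 genes lower (Atp6v0d2, log2 difference −0.77, limma adjusted p = 0.0353) and a median of −0.22, with sums of 67.7 to 106 against 105 to 112 FPKM. No intercalated gene was called with no filter, with a block for the replicate number, or with any library left out but knockout replicate 3. Of 6 inner medulla and tonicity genes none was called (107 to 160 against 77.2 to 112 FPKM), with a median log2 difference of 0.27. The 6 urothelium genes had the highest median of any list, 1.88, and all 6 were positive. Of these, 4 were higher at an unadjusted p under 0.05 and none was called, but 5 were called higher without knockout replicate 2, and their sums were 101 to 142 against 31.7 to 74.2 FPKM.

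The distal convoluted and connecting tubule list had 1 of 5 lower (Trpm6, log2 difference −0.59, limma adjusted p = 0.0371), the endothelial list 1 of 5 lower (Pecam1) and the injury list 1 of 5 lower (Havcr1, a marker of injured proximal tubule). With a library left out, the distal convoluted and endothelial lists kept a call only without knockout replicate 3. The injury list did so only without knockout replicate 3 or wild-type replicate 1, and none of these lists had a call with no filter. Kcnj1 stands on both the aldosterone and the thick ascending limb list. With each library left out, from 0 (without wild-type replicate 2) to 7 proximal tubule genes and from 2 (again without wild-type replicate 2) to 7 macrophage genes were called after UUO, and with no filter 0 and 4. In the same runs from 0 to 2 thick ascending limb genes were higher and from 0 to 4 fibroblast genes lower. After UIRI 4 of 10 proximal tubule genes were higher (sums 843 to 1936 against 471 to 608 FPKM) and 4 of 8 macrophage genes lower (759 to 1361 against 2011 to 2085 FPKM). None of the intercalated, thick ascending limb, distal convoluted tubule, medulla, fibroblast, endothelial, urothelium or injury genes tested was called there. Between 0 and 3 genes of each of these lists passed an unadjusted p under 0.05, and with voom 1 medulla and 1 fibroblast gene was called. Leaving out any library but replicate 2 of the mice labelled CD44 knockout took the proximal tubule and macrophage counts there to 0.

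**Figure D4:**
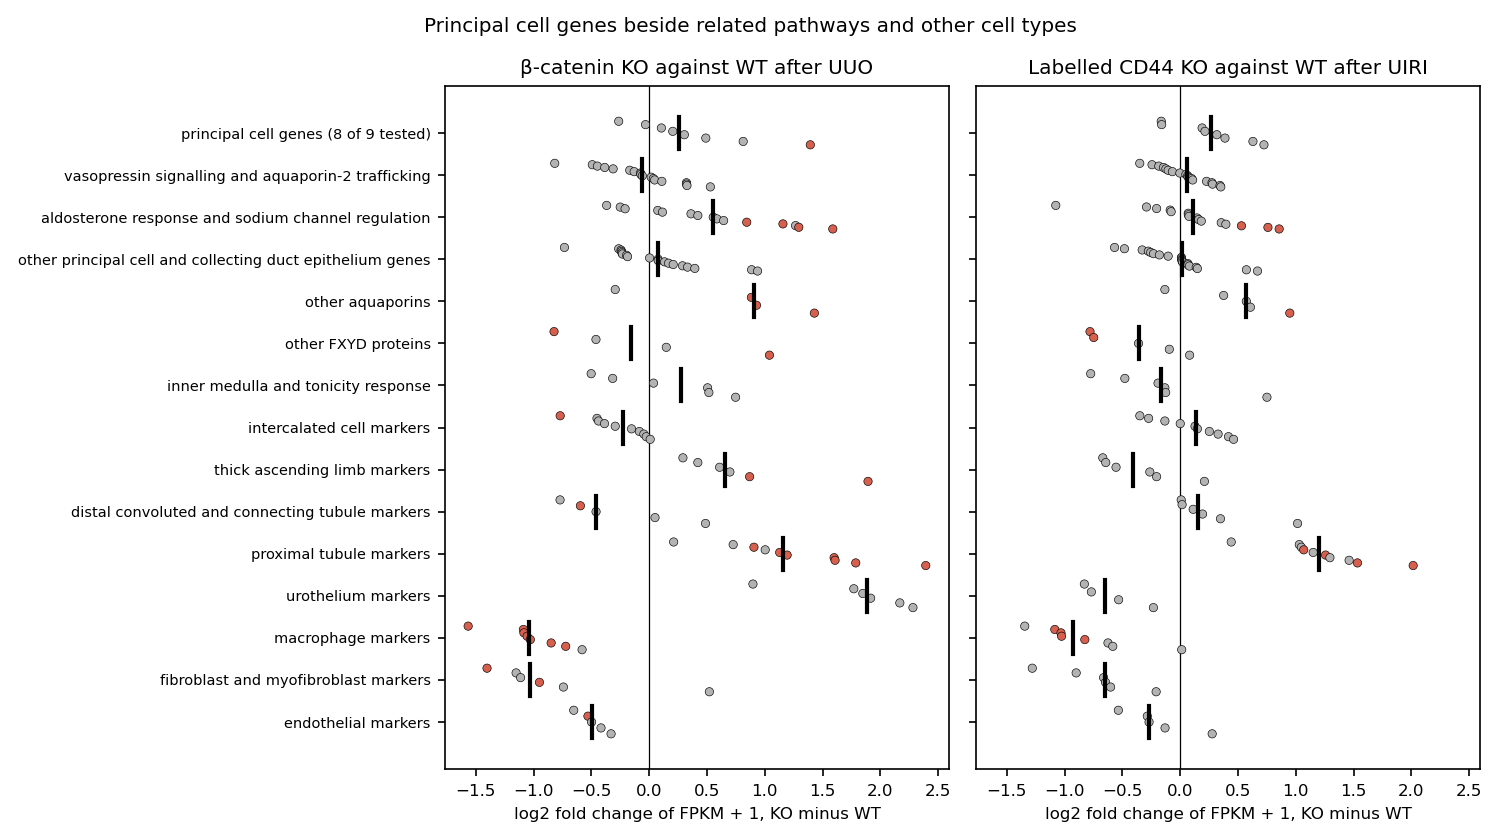
Log2 differences of the tested genes of each list, knockout minus wild type on log2(FPKM + 1), a point for each gene (red where called) and a line at the median, after UUO and after UIRI. The tested members have medians of 0.25 and 0.27 and the other principal cell genes of 0.08 and 0.01, while the proximal tubule list lies higher (1.16 and 1.20) and the macrophage list lower (−1.04 and −0.93).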

How the data were processed

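RNA was measured in whole kidneys of 12 mice, 4 groups of 3. Per the submitters' processing notes, reads were aligned with HISAT2 2.0.5 to GRCm38 and counted per gene with featureCounts 1.5.0-p3. The authors made FPKM from these and compared groups with DESeq2 1.20.0. FPKM are not counts, so the deposited FPKM were compared with limma 3.58.1 (eBayes with a trend, R 4.3.3) on log2(FPKM + 1), with Benjamini-Hochberg adjustment. Multiplied by gene length, 100% of the FPKM were whole steps (within 0.01 read) of 1 unit per library, from which its reads were recovered. Wild-type columns have the same names in both tables and were assigned by the knockout beside them. Libraries were prepared with a NEBNext Ultra kit, and the strand setting of counting is not given in the sources used here.

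The members and lists were chosen with earlier results of these data known. Named genes are the 9 members, Ctnnb1, Cd44 and Cdh16, the 3 members of each list with the smallest p in either experiment, with any called member allowed, and the 5 protein-coding genes most like Aqp2. Not every gene named by this rule is printed. Atp6v1b1 was a fixed denominator. Overlaps between annotated genes were read from the coordinates in the tables.

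The alternatives tried were other pseudocounts (0.1 or 0.01), other filters (none, or a mean of 1 FPKM), other scalings (to TPM, or by median of ratios), limma without its trend, voom on the recovered reads, a block for the replicate number, and leaving out each library. Scaling by median of ratios returned the main values unchanged, so only the scaling to TPM was a check of scaling. The fits were run on simulated reads, where only the median size of the set differences had to be recovered. That run does not vouch for any call made here. Other steps used Python 3.11.15, NumPy 2.4.6 and pandas 2.3.3, and figures Matplotlib 3.10.9. Promoter sequences are from RefSeq on GRCm38.p6. The authors' own fold changes and p-values, where given, were not used.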

Additional observations from a re-analysis of the deposited data

How the results depend on the processing

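Scaling by median of ratios returned the main values, so it is not counted as a setting for the member counts below. The number of members called after UUO was 1 in most settings and 0 with no filter and with FPKM rescaled to TPM, and it ranged from 0 to 1 with each library left out. It was 0 without β-catenin knockout replicate 2 and without wild-type replicates 1, 2 or 3. For Aqp2 the adjusted p from limma over the alternatives ran from 0.0200 (voom) to 0.116 (no filter). After UIRI no member was called in any alternative run, with each library left out included. Rescaling to TPM shifted the median log2 difference of all genes to −0.16 after UUO and −0.10 after UIRI, and turned Hsd11b2 after UUO to −0.011 and Fxyd4 to −0.095. With each library left out, log2 differences with a changing sign ranged from −0.24 to 0.14 for Scnn1b, −0.13 to 0.41 for Hsd11b2 and −0.068 to 0.24 for Fxyd4 after UUO, and from −0.37 to 0.053 for Aqp4 and −0.34 to 0.15 for Fxyd4 after UIRI. The cause was not tested. Leaving out β-catenin knockout replicate 1 and wild-type UIRI replicate 2 together, chosen after seeing the data, turned the within-group correlation of Aqp2 and Hsd11b2 to −0.56.

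Over the whole comparisons, with each library left out, 228 to 2449 genes were called after UUO and 1 to 2180 after UIRI, and 473 and 63 with no filter. Same-numbered libraries deviated together little (r of 0.08, 0.20 and 0.04 after UUO, and −0.14, −0.03 and −0.03 after UIRI). Deviations from the mean of so small a group cannot decide whether the numbers pair the mice. With the replicate number as a block, Aqp2 stayed called after UUO (adjusted p = 0.0449), 1 member was called there and 0 after UIRI. Prss8, Furin and Atp1b1 after UIRI had adjusted p of 0.0830, 0.111 and 0.138 under the block, in which no gene of the whole UIRI table was called (2117 higher and 1575 lower at an unadjusted p under 0.05). Over the lists, 324 counts of calls under an alternative stayed within 1.5 times the main count and 126 did not. The 324 include lists with none called in either run and the median-of-ratios run, which returned the main counts, so they overstate stability.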
